A study of Homo sapiens with 16 samples.

Results

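Expression of 39 interferon-stimulated genes, out of 57773 genes in the count table, was measured by RNA-seq in 4 human cell lines of clear cell renal carcinoma (ccRCC), all long established. The genes were taken from a written list of known interferon targets, and the question was whether the higher level of BST2 in A498 cells with a targeted KDM5C gene is shared by the other 38. All 39 were tested, since each had a sum of at least 60 counts over the libraries. The 16 libraries came from the lines A498, 786-O, 769-P and CAKI-2, grown as populations and not as single-cell clones. All of them, controls included, carried lentiviral Cas9 and a guide RNA. The study reports selection with puromycin for the control and KDM5C guides, and does not name the drug for the other guides.

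Each line had 1 library with a control guide (sgCtrl) and 2 libraries with guides against KDM5C, numbered 4 and 5, whose target sites overlap in 1 exon. Guides 2 and 4 against KDM5D gave 2 more libraries each for 786-O and CAKI-2. KDM5C, on chromosome X, encodes a demethylase of lysine 4 of histone H3, and KDM5D is its homologue on chromosome Y. Line and target together made 10 groups. The 2 guides of a target served as its replicates, and each comparison with a control rested on a single control library. The labels do not say whether libraries came from separate cultures, so p-values measure the spread between these libraries only.

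Interferon-stimulated genes are switched on when secreted type I interferon binds its receptor, made of IFNAR1 and IFNAR2, on the cell surface. The kinases JAK1 and TYK2 then activate STAT2, which joins IRF9 in a complex that binds the interferon-stimulated response element in promoters. The products block single steps of virus growth, such as entry, translation of viral RNA and release of new particles, and many are also made at a low level in cells that see no virus.

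The core of that element was looked for in the promoters of these genes. The letters GAAA, any 2 bases and GAAA again were searched on both strands, and overlapping matches were counted separately. In RefSeq promoters of build GRCh38.p14 (250 bases before to 50 bases after a start), 23 of the 31 listed genes found in the table held a match (74.2%), against 1195 of all 27305 genes (4.38%). In BST2, 2 overlapping matches began 130 and 124 bases before the start. The 200 bases before the start are shown for BST2, on which the question turned, for IFI44L, IFI6 and RSAD2, which differed strongly between guides in 786-O, and for IFIT1 and ISG15 as well-known targets. Capitals mark the matches. Each is written along the strand of its gene, at chr19:17405631-17405830 (minus strand), chr1:78620248-78620447 (plus), chr1:27672193-27672392 (minus), chr2:6877577-6877776 (plus), chr10:89392423-89392622 (plus) and chr1:1013297-1013496 (plus).
BST2: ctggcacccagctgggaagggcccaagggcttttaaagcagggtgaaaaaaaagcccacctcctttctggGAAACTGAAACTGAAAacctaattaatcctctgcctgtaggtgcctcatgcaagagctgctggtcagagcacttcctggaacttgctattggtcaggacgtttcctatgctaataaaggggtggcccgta
IFI44L: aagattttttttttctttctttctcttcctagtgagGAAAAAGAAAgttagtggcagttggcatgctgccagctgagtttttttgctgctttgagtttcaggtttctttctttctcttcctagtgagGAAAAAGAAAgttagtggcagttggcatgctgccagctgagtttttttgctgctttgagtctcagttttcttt
IFI6: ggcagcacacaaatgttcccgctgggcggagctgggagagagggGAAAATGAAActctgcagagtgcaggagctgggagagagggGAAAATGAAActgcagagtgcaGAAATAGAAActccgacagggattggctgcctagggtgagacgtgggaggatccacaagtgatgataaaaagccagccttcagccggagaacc
RSAD2: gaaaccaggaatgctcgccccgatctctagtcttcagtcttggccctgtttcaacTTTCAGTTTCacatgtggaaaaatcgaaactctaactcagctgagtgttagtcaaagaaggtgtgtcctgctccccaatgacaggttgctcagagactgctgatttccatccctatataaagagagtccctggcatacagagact
IFIT1: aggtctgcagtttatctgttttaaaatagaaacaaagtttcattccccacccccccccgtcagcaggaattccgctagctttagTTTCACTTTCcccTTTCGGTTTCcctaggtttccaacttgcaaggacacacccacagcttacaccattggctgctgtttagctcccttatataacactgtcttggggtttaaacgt
ISG15: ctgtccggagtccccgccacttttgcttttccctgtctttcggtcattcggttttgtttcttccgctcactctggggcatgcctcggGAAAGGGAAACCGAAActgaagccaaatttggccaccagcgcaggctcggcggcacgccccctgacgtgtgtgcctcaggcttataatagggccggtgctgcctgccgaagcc
IFI6 held 3 matches and RSAD2 1. Windows with no match belonged to 8 genes, OAS1, XAF1, SAMD9L and STAT2 among them. A match describes the letters of the window, and binding was not tested.

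Depth ranged from 23398449 counts (A498 sgCtrl) to 41617439 (CAKI-2 sgKDM5C 5). The KDM5C transcript was at 26.2% to 57.3% of the control in the 8 sgKDM5C libraries and at 91.5% to 106% in the 4 sgKDM5D libraries. KDM5D stood at 76.2% to 103% of the control in the libraries labelled sgKDM5D, so its transcript did not check those labels. In the sgKDM5C libraries of 786-O and CAKI-2 it stood at 66.0% (786-O guide 4) to 107% (CAKI-2 guide 4). The markers of kidney epithelium and ccRCC with a row summed to 1542 to 3046 CPM (counts scaled to a common library size, itself adjusted by the trimmed mean of M-values). Leukocyte markers summed to 0.0411 to 1.05 CPM, endothelial markers to 0 to 3.36 CPM and fibroblast markers to 5.35 to 42.2 CPM.

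BST2 (tetherin, ENSG00000130303, GRCh37 chromosome 19, 17513748 to 17516439, minus strand) encodes a membrane protein that holds budding enveloped viruses at the cell surface. In A498 it had 440, 2341 and 1763 counts in the control and with sgKDM5C guides 4 and 5, which is 18.7, 87.9 and 67.1 CPM. Both guides were above the control, by 4.68-fold and 3.57-fold, and the fitted log2 fold change was 2.05 (SE 0.23). This difference posed the question and is given as a description, without a test. The markers of kidney epithelium and ccRCC summed to 3046, 2667 and 2095 CPM in the same 3 libraries, and 4 of the 6 genes were below the control with both guides. Fibroblast markers summed to 23.96, 42.2 and 34.3 CPM, nearly all of it COL1A1 (23.6, 41.8 and 33.8 CPM), while leukocyte markers stayed between 0.647 and 1.05 CPM. The part of these shifts in the difference of BST2 was not tested. In such bulk libraries, more cells that express a gene and more RNA per cell cannot be told apart.

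In CAKI-2, BST2 measured 22.02 CPM in the control, 36.98 and 36.3 CPM with sgKDM5C guides 4 and 5, and 23.8 and 16.5 CPM with sgKDM5D guides 2 and 4. Both sgKDM5C libraries were above the other 3 libraries of the line. The difference from the control was 0.74 on the log2 scale (SE 0.21) and did not pass the threshold after adjustment over all genes (edgeR adjusted p = 1). Against the sgKDM5D libraries it was 0.86 (SE 0.17, edgeR adjusted p = 0.227). DESeq2 called this second difference (adjusted p = 0.00356), as did a fit of the CAKI-2 libraries alone (0.0366) and one without the filter on low counts (8.88e-05), while without sgKDM5D guide 4 the adjusted p was 1.

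In 786-O, where BST2 was most abundant, its level was 399 CPM in the control, 399 and 390.2 CPM with sgKDM5C guides 4 and 5, and 381 and 389.6 CPM with sgKDM5D guides 2 and 4. All lay within 5% of the control, and the sgKDM5C effect of -0.02 had a 95% interval of -0.45 to 0.42. In 769-P it had 54, 68 and 57 counts, and the effect was 0.10 (95% interval -0.53 to 0.73). Both intervals lay below the value fitted in A498, which is a description and no test, since that value posed the question. The sgKDM5D effect on BST2 was -0.05 in 786-O (SE 0.20) and -0.13 in CAKI-2 (SE 0.21, edgeR adjusted p = 1 and 1).

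Over the lines other than A498, the mean sgKDM5C effect on BST2 was 0.27 on the log2 scale (edgeR adjusted p = 1). Contrasts that hold the A498 libraries are not used as tests of BST2, since they contain the difference that posed the question.

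**Figure D1:**
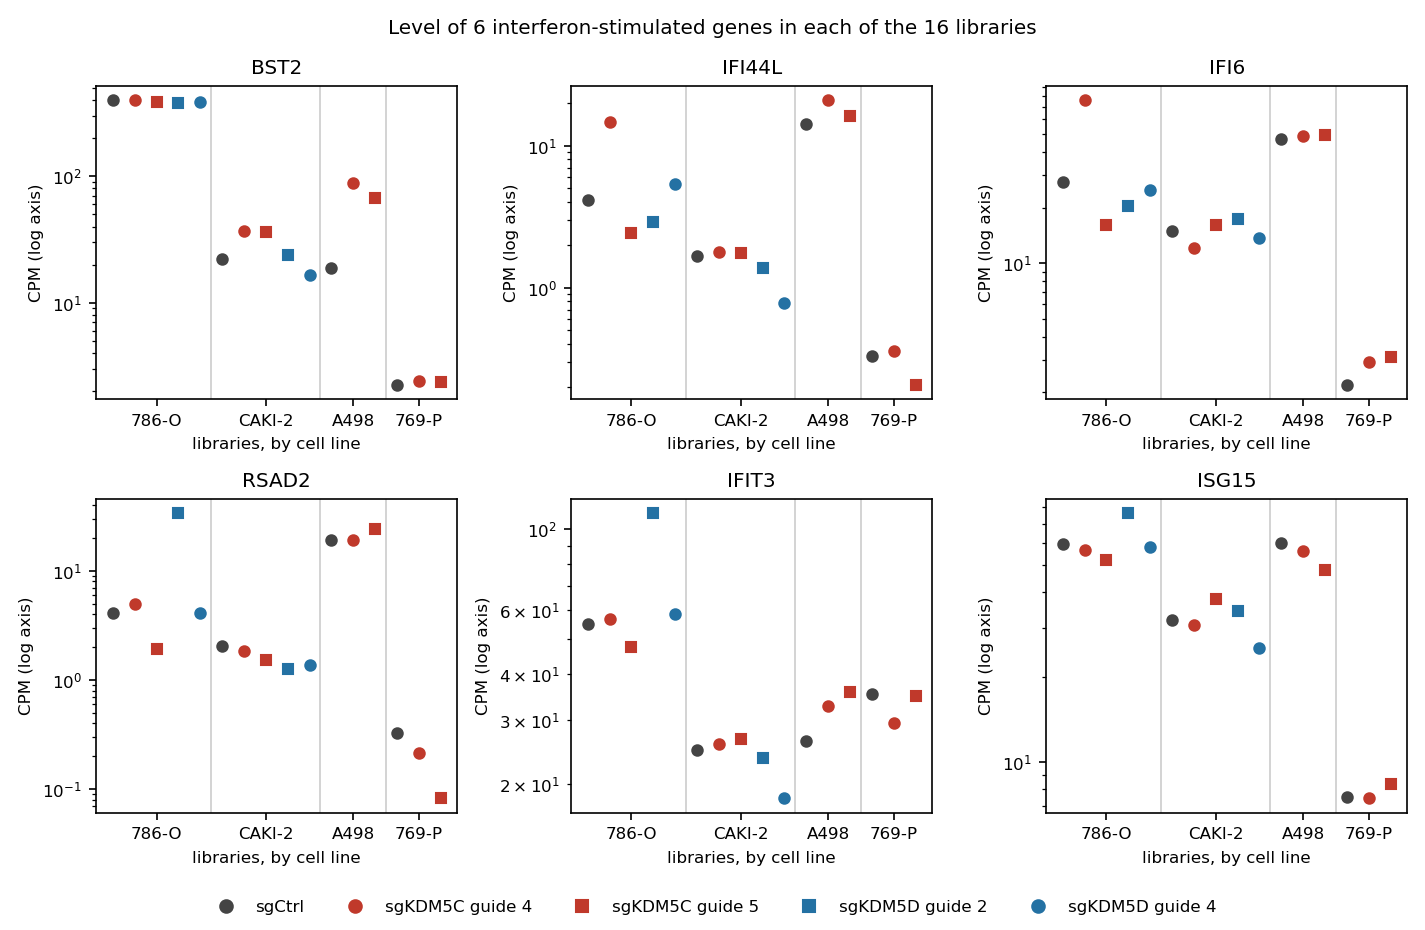
CPM of BST2 and 5 other interferon-stimulated genes in each of the 16 libraries, on log axes that differ between panels, with 1 point per library. BST2 stands above its control in A498 with both sgKDM5C guides (18.7, 87.9 and 67.1 CPM), and RSAD2 in 786-O with sgKDM5D guide 2 (33.6 CPM).

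Of the other 38 interferon-stimulated genes, 0 passed an adjusted p under 0.05 in A498, against a background of 0.00496% of all 20175 genes tested. That background was 1 gene, BST2 itself, whose difference posed the question. No other gene tested was called, so this count says little about the 38. At an unadjusted p under 0.05, edgeR again found 0 of 38, against a background of 5.55% of all genes (3.54% higher and 2.01% lower). The smallest p among the 38 was that of IFI35 (edgeR adjusted p = 0.894), whose level was lower with both guides. The median effect over the 39 genes, BST2 included, was 0.19 on the log2 scale, against 0.02 over all genes tested.

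Both guides lay above the A498 control for 25 of the 39 genes, BST2 among them (64.1%, background 37.9% of all genes). They lay below it for 8 (background 34.8%). More than 1.5-fold above the control were BST2, RTP4, IFITM1 and CMPK2 with guide 4 and BST2, MX2, CMPK2, HERC5, RTP4 and OAS2 with guide 5, and 0 members were that far below it. RTP4 and MX2 had 1 to 6 counts per library in A498.

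The IFIT proteins bind foreign RNA and hinder its translation, and all 4 genes were slightly above the control with both guides. IFIT1 measured 12.9 CPM in the control and 17.5 and 17.8 CPM with guides 4 and 5 (log2 0.45, 95% interval -0.32 to 1.22). IFIT3 measured 26.3, 32.8 and 35.7 CPM in the same order (0.38, -0.25 to 1.02), and IFIT5 measured 22.6, 28.2 and 27.1 CPM (0.29, -0.19 to 0.77). These genes are paralogues, so reads may be split between them. IFIT1, IFIT2 and IFIT3 overlap LIPA on the other strand, and the strand setting of the counting is not given in the sources used here.

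CMPK2, a mitochondrial nucleotide kinase, measured 1.02, 1.58 and 2.02 CPM in the control and with guides 4 and 5 (log2 0.81, 95% interval -0.60 to 2.22). OAS3, a sensor of double-stranded RNA that leads to activation of RNase L, measured 26.1, 27.96 and 31.8 CPM (0.19, -0.18 to 0.56). DTX3L, a ubiquitin ligase that works with PARP9, measured 52.3, 54.5 and 66.5 CPM (0.21, -0.17 to 0.59). Each was above the control with both guides, and the intervals included 0.

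Both guides lay below the control for IFI35, IFITM2, ISG15, ISG20, SAMD9L, LGALS3BP, IRF7 and IRF9. IFI35 measured 111, 90.8 and 85.6 CPM in the control and with guides 4 and 5 (log2 -0.33, 95% interval -0.72 to 0.06). LGALS3BP, a secreted glycoprotein that binds galectins, measured 1575, 1365 and 1321 CPM (-0.23, -0.61 to 0.15). ISG15, the ubiquitin-like protein that gave the response one of its names, measured 59.7, 56.2 and 48.1 CPM. RTP4 had 1, 4 and 3 counts, too few for a fold.

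The intervals set the limit of this comparison. Among the other 38 genes, the 95% interval reached the value of BST2 for IFITM1, MX2, CMPK2 and RTP4 only, all of them low in A498. In a fit of the 3 A498 libraries alone, 9 of the 39 genes had an unadjusted p under 0.05, against 1 in the fit of all libraries. The share of all genes under that limit also rose, from 5.55% to 14.3%, and BST2 was 1 of the 9.

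**Figure D2:**
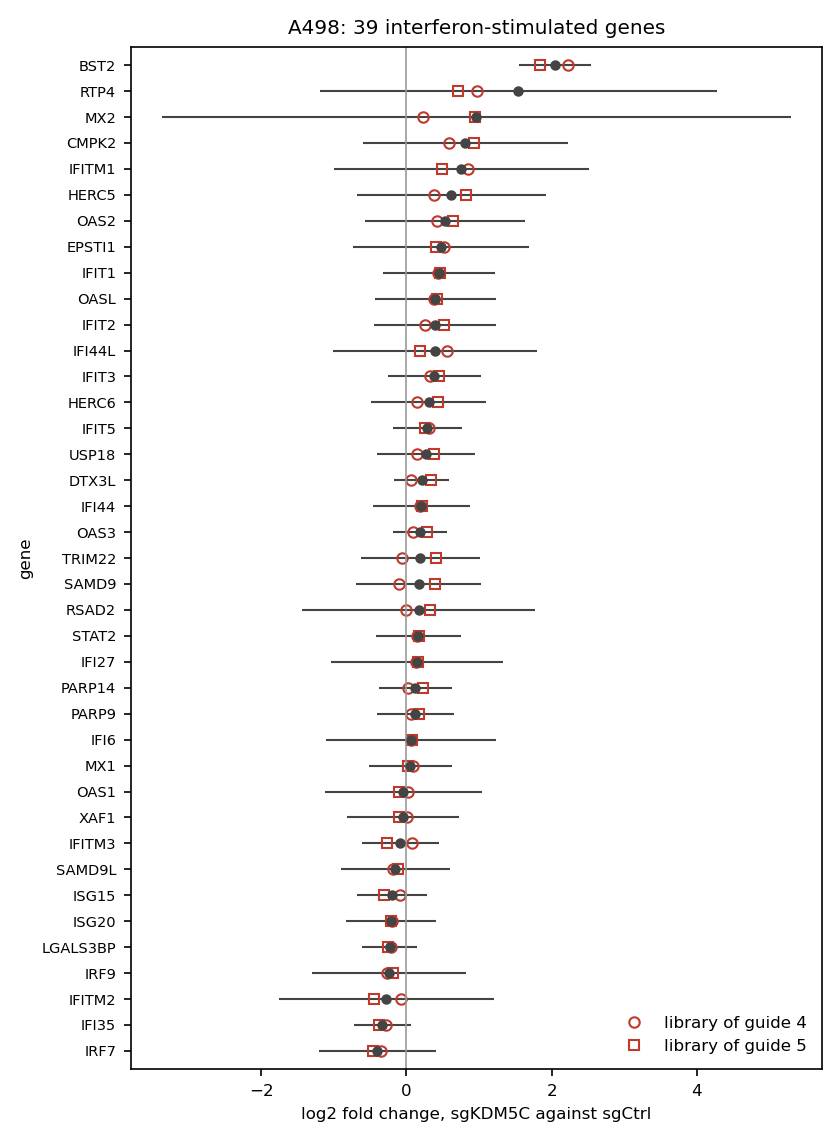
Fitted log2 fold change of each of the 39 genes for sgKDM5C against sgCtrl in A498 (black, with 95% intervals), with the log2 ratio of each guide's library to the control library (red open symbols). BST2 lies at 2.05, and the interval of each of the other 38 genes includes 0.

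For sgKDM5C in the other lines, 0 of 39 members were called in 786-O (background 0.00991%), 0 of 39 in CAKI-2 (background 0%) and 0 of 39 in 769-P (background 0.00496%). At an unadjusted p under 0.05, edgeR found 1 member in 786-O (RTP4, lower, background 2.92%, or 1.78% higher and 1.14% lower), 2 in CAKI-2 (BST2 higher and SAMD9L lower, background 1.94%, or 1.3% and 0.644%) and 1 in 769-P (OAS3, lower, background 3.32%, or 2.3% higher and 1.02% lower). The median effect over the members was 0.10 in 786-O, -0.03 in CAKI-2 and 0.07 in 769-P, against 0.00, 0.00 and 0.02 over all genes.

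RTP4 measured 1.28, 0.376 and 0.503 CPM in 786-O in the control and with sgKDM5C guides 4 and 5, from 34, 11 and 14 counts (log2 -1.53, SE 0.54, edgeR adjusted p = 1). It was lower in both libraries. SAMD9L, a restriction factor of poxviruses, had 5, 0 and 0 counts in CAKI-2, too few for a fold. OAS3 in 769-P measured 109, 80.5 and 89.9 CPM (log2 -0.36, SE 0.16, edgeR adjusted p = 1), lower with both guides.

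ISG20, an RNA exonuclease, had 11, 30 and 19 counts in 769-P, above the control with both guides. IFITM2, a barrier to virus entry, measured 5.89, 6.72 and 13.9 CPM there, so guide 5 carried most of its difference. IFI27, a small mitochondrial protein much used as a marker of the response, measured 25.6, 41.7 and 49.1 CPM in CAKI-2 (log2 0.83, SE 0.58, edgeR adjusted p = 1). In 786-O it measured 10.2, 9.19 and 1.62 CPM, close to the control with guide 4 and far below it with guide 5.

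Over the 4 lines, 0 of the other 38 members were called for a shared sgKDM5C effect (background 0.00991%). At an unadjusted p under 0.05, edgeR found 1 of them (SAMD9L, lower, background 5.18%, or 3.43% higher and 1.75% lower). SAMD9L was not lower throughout, and its 5, 0 and 0 counts in CAKI-2 were too few for a fold. In 769-P both guides were above the control (13.8, 16.5 and 14.8 CPM). In 786-O they lay on opposite sides of it (18.1, 24.5 and 10.8 CPM), and in A498 both were below it (36.9, 32.3 and 34.1 CPM). After SAMD9L came LGALS3BP, at -0.15 on the log2 scale (SE 0.09). For a difference of the effect between lines, 0 of the 38 were called (background 0%) and 0 had an unadjusted p under 0.05 (background 2.29%). For A498 against the mean of the other lines, 0 of the 38 were called (background 0%) and 0 had an unadjusted p under 0.05 (background 3.87%, or 2.17% higher and 1.7% lower). DESeq2 also called 0 of the 38 in each of these comparisons.

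In 786-O the 2 guides against KDM5C lay on opposite sides of the control for 28 of the 39 genes (71.8%, background 44.3% of all genes). In the other lines this held for 6 in A498 (background 24.5%), 14 in 769-P (background 37.1%) and 12 in CAKI-2 (background 34.9%). Across all genes, too, these 2 libraries of 786-O differed most, with a chi-square of 68.98 per gene between the libraries of a group, against 9.604 to 46.03 in the other groups, a measure that grows with depth. With guide 4, 31 members were above the control, 14 of them by more than 1.5-fold (35.9%, background 12.7% of all genes). With guide 5, 36 were below it, 14 of them by more than 1.5-fold (35.9%, background 11.1%). The median log2 ratio was 0.35 with guide 4 and -0.38 with guide 5. These single libraries were set apart after their values were seen, so no test is given.

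IFI44L measured 4.17 CPM in the 786-O control, 14.7 and 2.44 CPM with sgKDM5C guides 4 and 5, and 2.89 and 5.37 CPM with sgKDM5D guides 2 and 4. IFI6, a membrane protein that limits flavivirus replication, had 27.4 CPM in its control, 76.3 and 16.02 CPM with sgKDM5C and 20.3 and 25.01 CPM with sgKDM5D. OAS2, which makes oligoadenylates that activate RNase L, measured 2.71, 7.72, 1.69, 2.27 and 1.99 CPM in the same order. For these genes sgKDM5C guide 4 was the highest of the 5 libraries and guide 5 the lowest.

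OAS1 measured 5.38, 13.98 and 3.70 CPM in the control and with sgKDM5C guides 4 and 5, while OAS3 measured 162, 162 and 149 CPM. MX2, a dynamin-like GTPase, measured 1.28, 3.31 and 0.898 CPM and TRIM22, a RING-domain protein, measured 28.1, 51.8 and 21.7 CPM. So OAS1, MX2 and TRIM22 were above the control with guide 4 and below it with guide 5, and OAS3 differed little.

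The 14 genes more than 1.5-fold above the control with guide 4 were IFI44L, IFI6, MX1, MX2, OAS1, OAS2, HERC5, XAF1, EPSTI1, CMPK2, SAMD9, STAT2, IRF7 and TRIM22. The 14 that far below it with guide 5 shared 7 of these (IFI44L, IFI6, OAS2, HERC5, EPSTI1, CMPK2 and SAMD9) and further held IFI27, IFIT1, IFITM1, RSAD2, SAMD9L, IRF9 and RTP4. Among the factors of the pathway, STAT2 measured 53.7, 82.8 and 44.7 CPM in the control and with guides 4 and 5. KDM5C was at 26.2% of the control with guide 4 and 47.4% with guide 5, and its part in the difference was not tested. Without guide 5, the median sgKDM5C effect over the members in 786-O was 0.35 on the log2 scale, and without guide 4 it was -0.369.

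**Figure D3:**
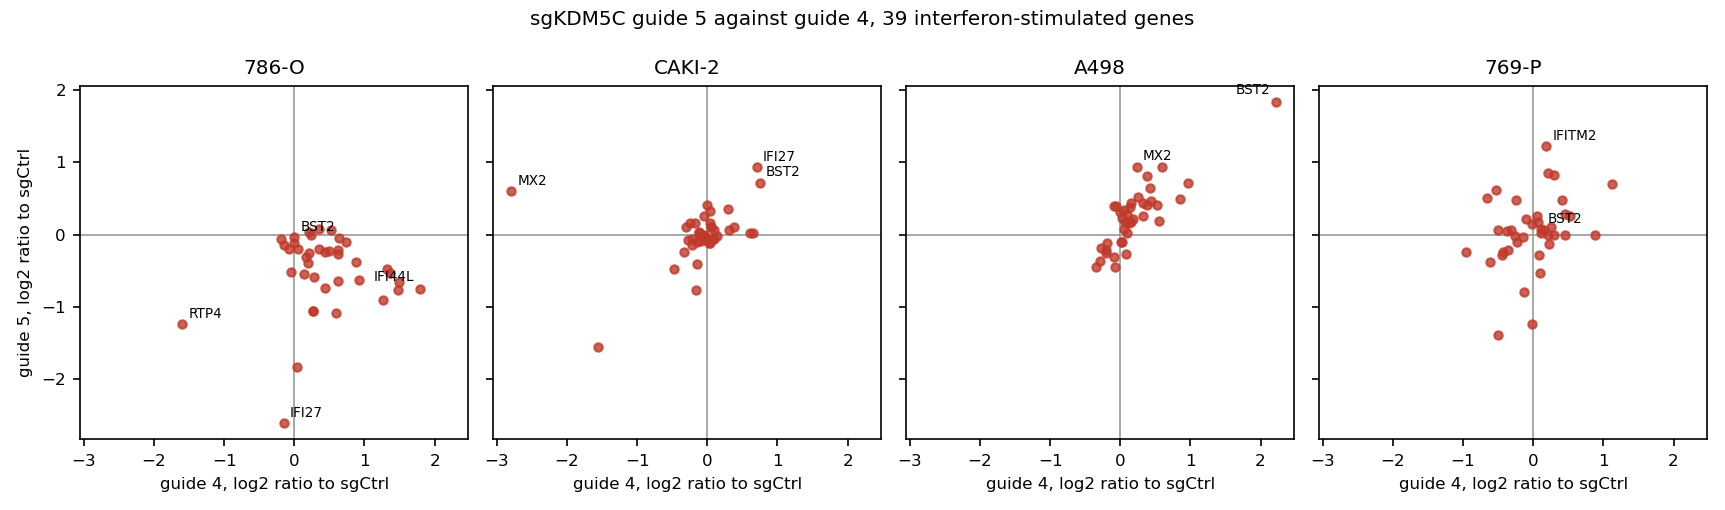
Log2 ratio to the sgCtrl library of the same line, with sgKDM5C guide 4 on the horizontal axis and guide 5 on the vertical axis, 1 point for each of the 39 genes and 1 panel for each line. In 786-O the guides lie on opposite sides of 0 for 28 genes (background 44.3% of all genes), and in A498 25 genes lie above 0 on both axes with BST2 far from the rest.

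Another set of genes stood out in 1 of the sgKDM5D libraries of 786-O. With guide 2, 10 members were more than 1.5-fold above the control (25.6%, background 8.62%), namely IFI44, IFIT1, IFIT2, IFIT3, IFITM2, OASL, RSAD2, HERC5, HERC6 and CMPK2. With guide 4 this held for CMPK2 alone (2.56%, background 7.51%). The list of sgKDM5D guide 2 shared HERC5 and CMPK2 with that of sgKDM5C guide 4, which is 2 of 10 and 2 of 14, and both lists rest on the same control library.

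RSAD2 encodes viperin, which makes a nucleotide that ends RNA chains. It had 109, 1021 and 111 counts in the 786-O control and with sgKDM5D guides 2 and 4, or 4.10, 33.6 and 4.08 CPM, and 4.96 and 1.94 CPM with sgKDM5C. HERC5, the ligase that attaches ISG15 to proteins, measured 5.04, 20.5 and 5.55 CPM in the control and with sgKDM5D guides 2 and 4. IFIT2 measured 19.2, 43.7 and 18.9 CPM, IFIT3 measured 54.8, 110.4 and 58.5 CPM and OASL measured 12.1, 25.2 and 10.4 CPM. In each of them guide 2 stood apart and guide 4 was close to the control. CMPK2, which overlaps RSAD2 on the other strand, measured 1.09, 4.01 and 1.69 CPM.

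For sgKDM5D against sgCtrl, 0 of 39 members were called in 786-O (background 0.0149%) and 0 of 39 in CAKI-2 (background 0%). At an unadjusted p under 0.05, edgeR found 3 in 786-O (background 1.82%, or 0.971% higher and 0.853% lower), which were RSAD2 (log2 2.20, SE 0.86), CMPK2 (1.39, SE 0.63) and IFITM1 (-2.18, SE 0.97), all at an adjusted p of 1. IFITM1, which blocks virus entry, had 15, 5 and 2 counts. Without sgKDM5D guide 4, the effect on RSAD2 was 3.01 on the log2 scale, and without guide 2 it was -0.00164. Guide 2 was set apart after its values were seen, so no test of that library is given.

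In CAKI-2, sgKDM5D guide 4 had 32 of 39 members below the control, 8 of them by more than 1.5-fold (20.5%, background 6.08%), with a median log2 ratio of -0.24. Guide 2 had 21 below it, with a median of -0.02. OASL, for example, measured 23.3, 23.5 and 13.1 CPM in the control and with guides 2 and 4. The 1 member at an unadjusted p under 0.05 (background 0.773%) was MX2, with 33, 6 and 2 counts, and the sgKDM5C libraries of that line had 2 and 61 counts of it. EPSTI1 had 0, 2 and 3 counts in the same order, and SAMD9L had 5, 0 and 1, too few for a fold.

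The sgKDM5D effect did not pass the threshold for a difference between CAKI-2 and 786-O in any member (0 of 39 called, background 0.00496%). RSAD2 alone had an unadjusted p under 0.05 (log2 difference -2.84, SE 1.21, edgeR adjusted p = 1, background 1.47%). For IFIT3 the difference was -0.87 (SE 0.41) and for HERC5 -1.68 (SE 0.86).

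Between sgKDM5C and sgKDM5D, a comparison without the control libraries, 0 of 39 members were called in 786-O (background 0.0644%) and 0 of 39 in CAKI-2 (background 0%). At an unadjusted p under 0.05, edgeR found 9 members in 786-O (23.1%, background 4.78%, or 2.06% lower and 2.72% higher). The 7 that were lower with sgKDM5C were RSAD2 (log2 -2.45, SE 0.66, adjusted p = 0.462), IFIT3 (-0.70, SE 0.23, adjusted p = 0.687), HERC5 (-1.39, SE 0.51, adjusted p = 0.803), IFIT1, IFIT2, OASL and CMPK2. In each of these 7, sgKDM5D guide 2 was the highest of the 5 libraries. The 2 that were higher with sgKDM5C were IFI6 and OAS2, in which sgKDM5C guide 4 was the highest.

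In CAKI-2 the 3 members at an unadjusted p under 0.05 were BST2, IFI44 and MX2, all higher with sgKDM5C (7.69%, background 3.38%, or 2.09% higher). MX2 had 2 and 61 counts with sgKDM5C guides 4 and 5, and 6 and 2 with sgKDM5D guides 2 and 4. Its difference was thus carried by sgKDM5C guide 5 alone. IFI44 measured 7.12 and 5.85 CPM with sgKDM5C and 4.84 and 3.18 CPM with sgKDM5D (log2 0.69, SE 0.28, edgeR adjusted p = 1). Its control measured 5.44 CPM, between both groups.

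**Figure D4:**
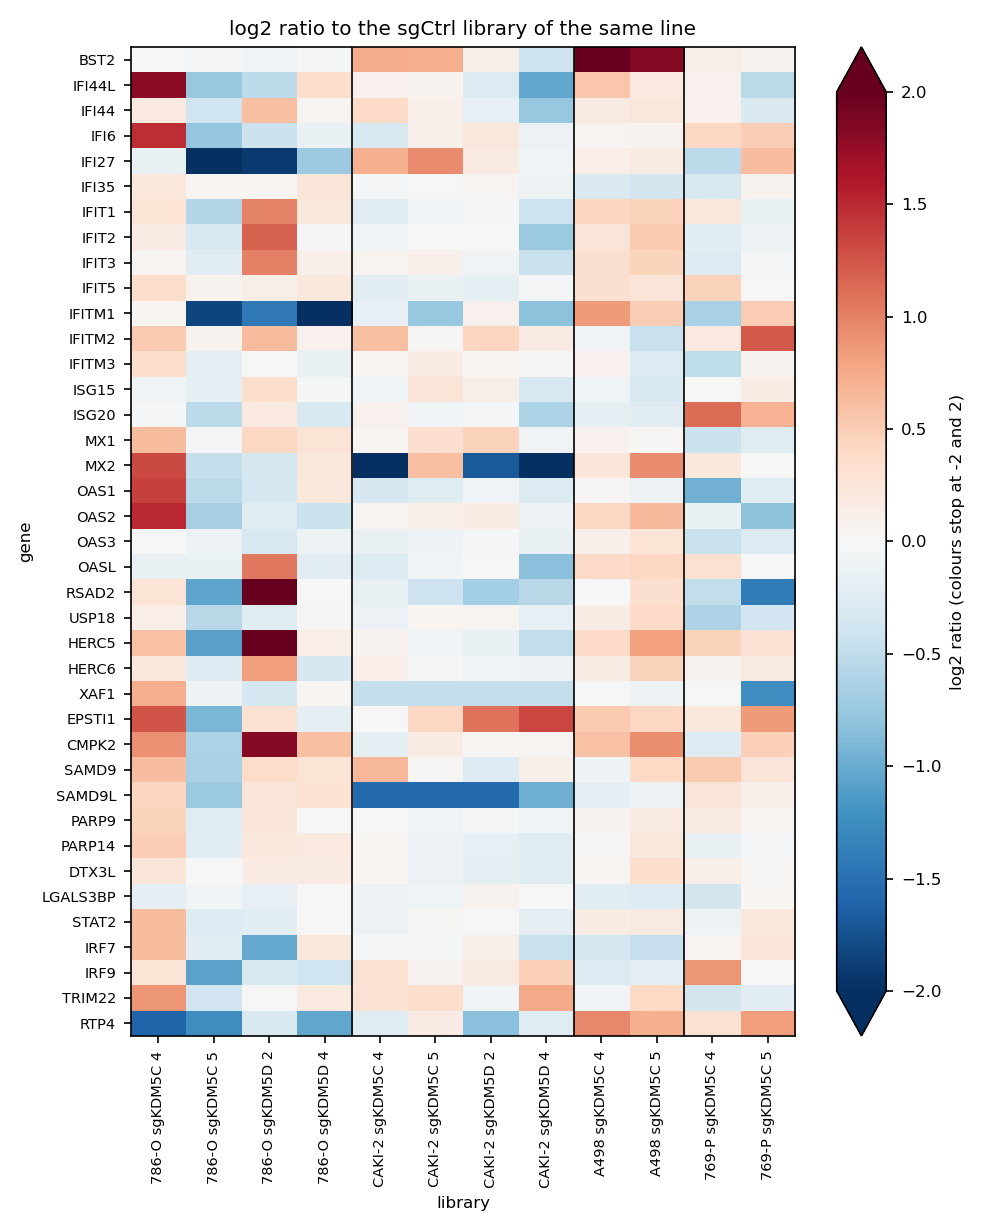
Log2 ratio of each of the 39 genes (rows) to the sgCtrl library of the same line in the 12 libraries with a targeting guide (columns), with colours that stop at -2 and 2. The sgKDM5C columns of 786-O differ in sign for 28 of 39 genes, against 44.3% of all genes, and in A498 BST2 is the gene furthest from its control.

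The level of each line was taken from its control and sgKDM5C libraries (n = 3) and set against the mean of the other lines. By their median the members stood highest in A498 and lowest in 769-P. The median difference over the members was 1.19 on the log2 scale in A498, 0.60 in 786-O, -0.24 in CAKI-2 and -0.90 in 769-P, where over all genes it lay between -0.07 and 0.15. By edgeR, 30 of 39 members were called in A498 (26 higher and 4 lower, background 69%), 28 in 786-O (20 higher and 8 lower, background 56.5%), 28 in CAKI-2 (11 higher and 17 lower, background 61.5%) and 25 in 769-P (7 higher and 18 lower, background 58.1%). These shares were 76.9%, 71.8%, 71.8% and 64.1%, above the shares of all genes, most of which were called between lines as well. Of all genes, 39.7% were higher and 29.4% lower in A498, 36.6% and 25% in CAKI-2, 30.9% and 27.3% in 769-P, and 29.3% and 27.2% in 786-O. Of the 39 genes, 19 had their highest level in A498, 12 in 786-O, 6 in CAKI-2 and 2 in 769-P.

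BST2 was highest in 786-O, at 396 ± 5.14 CPM (SD, n = 3), followed by A498 at 57.9 ± 35.5, CAKI-2 at 31.8 ± 8.46 and 769-P at 2.33 ± 0.0979 CPM. The first and last steps of this order were called (edgeR adjusted p = 5.19e-10 and 9.72e-10). The step from A498 to CAKI-2 also passed the threshold. It contains the difference that posed the question and is not read as a test. The place of A498 above CAKI-2 rests on its sgKDM5C libraries, since the controls stood at 18.7 CPM in A498 and 22.02 CPM in CAKI-2. Per kilobase of exon, BST2 had the highest level of all members in 786-O (359.8 CPM per kilobase), above LGALS3BP (173) and ISG15 (64.7). In A498 its level was 52.6 CPM per kilobase, against 415 for LGALS3BP.

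MX1, a dynamin-like GTPase, was highest in A498, at 66.2 ± 2.26 CPM (SD, n = 3), against 3.62 ± 0.478 in CAKI-2, 2.88 ± 0.8204 in 786-O and 1.09 ± 0.177 CPM in 769-P. OAS2 measured 29.2 ± 6.397 CPM in A498 and 4.04 ± 3.23 CPM in 786-O, with 1 to 3 counts per library in 769-P (A498 against the other lines log2 5.29, SE 0.33, edgeR adjusted p = 3.64e-09). OAS3 went the other way, at 28.6 ± 2.87 CPM in A498 and 157 ± 7.31 CPM in 786-O (log2 -1.96, SE 0.11, edgeR adjusted p = 1.69e-09). IFITM2 was also low in A498, at 0.526 ± 0.0944 CPM, and high in 786-O, at 20.2 ± 4.18 CPM. The IFITM genes are close copies of each other, so reads may be split between them.

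RTP4 was lower in A498 than the mean of the other lines (log2 -1.60, edgeR adjusted p = 0.0427), at 1 to 4 counts per library. Its lowest level was in CAKI-2, at 0.0529 CPM against 0.102 CPM in A498. The call was lost in 8 of 15 alternatives (adjusted p = 0.0336 to 0.164 over all of them), among them DESeq2 and the fits without either A498 sgKDM5C guide or without guide 5 of any other line. Blocking on guide number gave 0.0611 (edgeR adjusted p). IFITM1 was lower in 786-O (-1.31, edgeR adjusted p = 0.0247), at 3 to 17 counts. That call was lost without sgKDM5C guide 5 of 786-O (edgeR adjusted p = 0.0705) and with the sgCtrl libraries alone (0.361), out of 15 alternatives with an adjusted p = 0.000858 to 0.361.

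USP18, which removes ISG15 from proteins and restrains the receptor, was highest in CAKI-2, at 26.02 ± 1.501 CPM (SD, n = 3), against 8.71 ± 2.05 in 786-O, 4.17 ± 0.575 in A498 and 2.65 ± 0.593 CPM in 769-P (log2 2.499, SE 0.15, edgeR adjusted p = 3.08e-09). HERC5 measured 25.9 ± 1.16 CPM in CAKI-2 and 20.3 ± 5.77 CPM in A498, a step that was not called (edgeR adjusted p = 0.319). ISG15 itself measured 33.5 ± 3.91 CPM in CAKI-2, below the 56.1 ± 3.83 CPM of 786-O. STAT2 was highest in CAKI-2, at 129 ± 7.08 CPM.

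In CAKI-2 some members were nearly absent. XAF1, which binds the apoptosis inhibitor XIAP, had 1 count in the control and 0 in each of the other 4 libraries, against 635 to 726 in A498. SAMD9L had 0 to 5 counts, against 860 to 896 in A498 and 335 to 463 in 769-P. EPSTI1 had 0 to 3 counts, and TRIM22 had 8 to 19 counts against 514 to 1517 in the other lines. SAMD9, the paralogue of SAMD9L, was still present in CAKI-2 at 8.15 to 15.5 CPM.

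Other members were nearly absent from 769-P. IFI27 had 1 to 4 counts per library there, against 2516 to 3137 in A498 and 936 to 2132 in CAKI-2 (769-P against the others log2 -8.36, SE 0.74, edgeR adjusted p = 2.65e-07). OASL had 6 to 9 counts (log2 -6.62, SE 0.43, edgeR adjusted p = 1.16e-08), and RSAD2 had 2 to 8. SAMD9L, TRIM22 and IFITM2 were called higher in 769-P than the mean of the other lines. They measured 15.04 ± 1.34, 23.6 ± 3.04 and 8.84 ± 4.404 CPM there. Each was higher in another line, SAMD9L at 34.4 CPM in A498, and TRIM22 at 33.9 and IFITM2 at 20.2 CPM in 786-O. The mean of the other lines includes the near-absence of SAMD9L and TRIM22 in CAKI-2 and the low IFITM2 of A498 (0.526 CPM). The medians by line were the same with XAF1, EPSTI1 and SAMD9L set to the limit of 3 counts where a CAKI-2 group was at 0.

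IRF7, a transcription factor that drives interferon genes, was highest in A498, at 48.5 ± 8.26 CPM (SD, n = 3), and lowest in 786-O, at 5.56 ± 1.79 CPM (786-O against the others log2 -1.76, SE 0.26, edgeR adjusted p = 4.76e-05). IFI35 had the same ends, at 95.7 ± 13.3 CPM in A498 and 16.1 ± 1.28 CPM in 786-O (log2 -1.89, SE 0.13, edgeR adjusted p = 1.51e-08). IRF9 had 9 to 45 counts per library, and it overlaps a readthrough gene on the same strand that could share its reads.

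**Figure D5:**
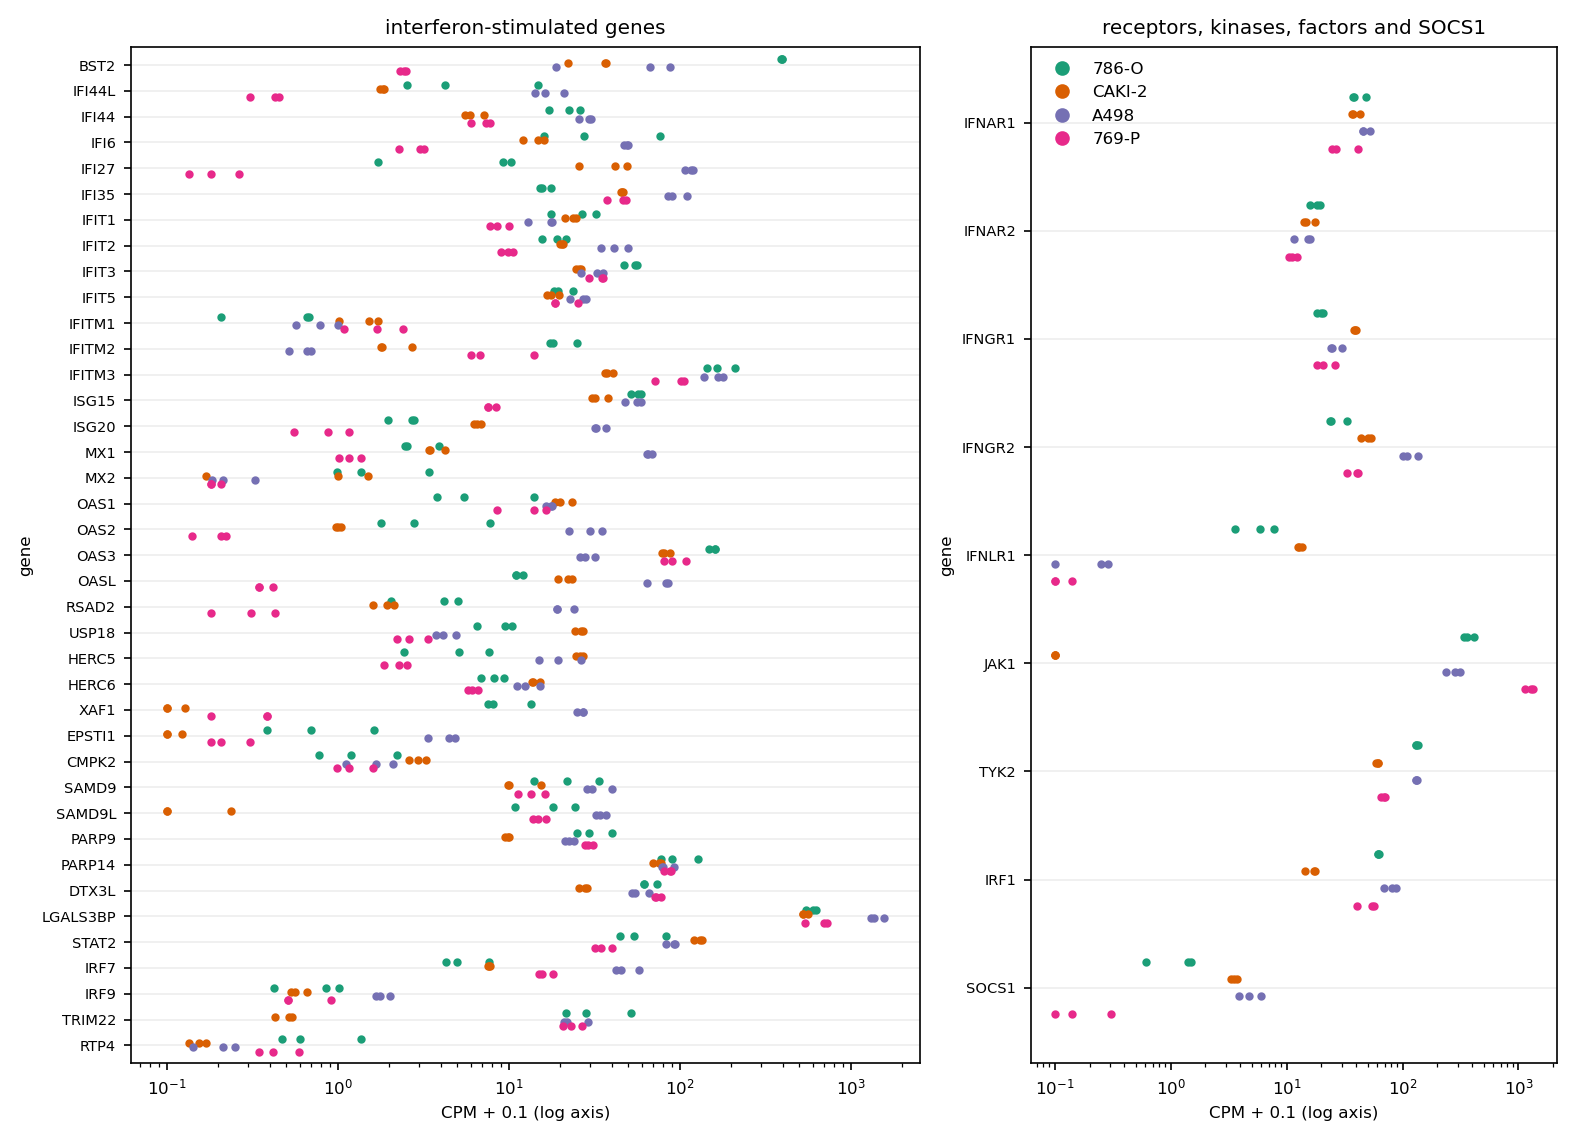
CPM plus 0.1, on log axes, of the 39 interferon-stimulated genes (left) and of receptors, kinases, IRF1 and SOCS1 of the pathway (right), with 1 point for each of the 12 sgCtrl and sgKDM5C libraries and 1 colour for each line. By their mean, 19 of the 39 genes are highest in A498, and JAK1 lies at 0 in CAKI-2.

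The upstream pathway was read from lists of its parts. The 21 interferon genes together gave 1 to 15 counts per library in 786-O, CAKI-2 and 769-P and 59 to 69 in A498, of which 13 to 26 were not IFNE. In A498 their sum was 69 counts in the control and 67 and 59 with sgKDM5C guides 4 and 5. The type I receptor was present in every line, with IFNAR1 at 24.6 to 51.96 CPM and IFNAR2 at 10.4 to 19.4 CPM. For interferon gamma, IFNGR1 measured 17.8 to 39.6 CPM and IFNGR2 23.8 to 137 CPM. IFNLR1, the receptor chain for interferon lambda, had 0 to 5 counts in A498 and 769-P and 98 to 550 in 786-O and CAKI-2.

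Of the 14 genes of the receptor and signalling list, edgeR called 0 for sgKDM5C in any line, and 1 had an unadjusted p under 0.05 (IFNLR1 in A498, with 0, 5 and 4 counts, where 5.55% of all genes did). Of the 11 inhibitors, 0 were called and 0 had an unadjusted p under 0.05 in any line.

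JAK1, which was singled out after its values were seen, had 0 counts in all 5 CAKI-2 libraries and 5607 to 37567 in each of the other 11. A count of 0 allows up to 3 counts per library, or 0.0691 to 0.117 CPM, which covers counting error only. By that limit JAK1 was at least 2039-fold lower in CAKI-2 than in the lowest library of another line. Its neighbours on chromosome 1 were counted in CAKI-2. RAVER2 had 76 to 121 counts there, or 2.79 to 3.11 CPM, below the 7.40 to 18.5 CPM of the other lines. CACHD1 had 211 to 372 counts, or 7.46 to 10.8 CPM, within the 2.60 to 18.5 CPM of the other lines. In CAKI-2 the partner kinase TYK2 measured 58.7 to 66.1 CPM.

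The tested genes next to BST2 on chromosome 19 were compared in A498 with the same fit, and 0 of 6 were called. ANO8 measured 35.1, 34.7 and 38.6 CPM in the control and with sgKDM5C guides 4 and 5, and GTPBP3 measured 24.9, 22.4 and 26.1 CPM. MVB12A measured 63.1, 49.1 and 46.1 CPM (log2 -0.41, SE 0.20, edgeR adjusted p = 0.882), below the control in both libraries in which BST2 was above it. ENSG00000269481, ENSG00000254503 and TMEM221 had under 1 CPM in each A498 library.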

How the data were processed

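RNA was extracted from cell populations with NucleoSpin columns, made into TruSeq stranded libraries and sequenced in pairs on a NovaSeq. The values are raw read counts per gene, deposited by the authors as 1 table. The submitters' processing notes name Trimmomatic 0.38, STAR 2.5.2b and GRCh37. The counter, annotation release and strand setting are not given in the sources used here. Columns of per-sample values not used numbered 0. Gene symbols came from a GRCh37 annotation (GENCODE), which matched 55538 of 57773 identifiers (96.1%).

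Counts were analysed in R 4.3.3 with edgeR 4.0.16, using the quasi-likelihood F-test after scaling by the trimmed mean of M-values. The filter kept 20175 genes whose counts summed to 60 or more. All 16 libraries entered 1 fit with a mean for each of the 10 groups, which left 6 residual degrees of freedom. Adjustment followed Benjamini and Hochberg across the whole table tested, and an adjusted p under 0.05 was a call. A prior count of 2 was added for the ratio of 1 library to its control. The fit was tested on simulated data, and the outcome is not given here.

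The members and gene lists were chosen with earlier results of these data known. Every listed gene could be named. 1 gene is not reported here. Values by library are given for BST2, for called members, for up to 10 members with the smallest p in A498 and up to 3 in each other comparison of genotypes, and for up to 3 called members per line and direction. Some genes were added after their values were seen, among them those of the 786-O guides and JAK1. Alternatives were DESeq2 1.42.0, its size factors, other filters, a fit of 12 libraries, a fit of each line alone, the guide number as a block, and leaving out each guide library or line. The control libraries could not be left out, since each line has 1. Counting errors are small at this depth for well-covered genes and large for those with fewer than 10 counts.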

Additional observations from a re-analysis of the deposited data

How the results depend on the processing

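Of 360 recomputed counts and medians, 320 stayed close to the value reported and 40 moved. Of the 173 medians among them, 6 had another sign than the value reported, in 4 comparisons, each with a guide library left out. DESeq2 called 1 member over the lines, 1 for the difference of the 4 lines, 1 for A498 minus the other lines and 1 for sgKDM5C against sgKDM5D in CAKI-2, where the reported counts were 0 and each such call was BST2, on 0 to 0.273% of all genes called by DESeq2 in a comparison. Without a filter on low counts the same comparisons gave 1, 2, 1 and 3 members, and sgKDM5D in 786-O gave 3, its difference between lines 2 and sgKDM5C against sgKDM5D in 786-O 8, on 0.00746% to 0.739% of all genes. A fit of CAKI-2 alone called 2 members between sgKDM5C and sgKDM5D, and a fit of 769-P alone moved the sgKDM5C median there to 0.0531. Without line 769-P, 1 member, BST2, was called over the lines. Calls of BST2 in comparisons that hold A498 libraries contain the difference that posed the question and are no test of it. With the sgCtrl libraries alone, 17 members were called in 786-O against the other lines (39.3% of all genes were) and the 769-P median was -1.02. The A498 median against the other lines was 1.14 with filterByExpr, 1.09 without a filter and 1.14 in the fit of 12 libraries. The cause was not tested.

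When each guide library was left out in turn, the members called ranged from 0 to 2 for sgKDM5C in 786-O, 0 to 1 in A498, 0 to 1 over the lines, 0 to 1 for the difference of the 4 lines, 0 to 1 for sgKDM5D in 786-O and 0 to 5 for sgKDM5C against sgKDM5D in 786-O, on 0 to 1.54% of all genes. Without A498 sgKDM5C guide 4, the effect on BST2 stood at 1.84 in A498. The counts for sgKDM5C in 786-O, over the lines, for the difference and against sgKDM5D in 786-O were highest without 786-O sgKDM5C guide 5. Each of these fits leaves 1 guide library in a group, so the counts show the weight of single libraries and are no tests. Medians ranged from -0.369 to 0.35 for sgKDM5C in 786-O, -0.0366 to 0.0473 in CAKI-2, -0.0378 to 0.141 over the lines, 0.0231 to 0.0954 for sgKDM5D in 786-O, -0.271 to -0.14 for its difference, -0.471 to 0.205 for sgKDM5C against sgKDM5D in 786-O and 0 to 0.209 in CAKI-2. Against the other lines they ranged from -0.304 to -0.183 in CAKI-2, 1.13 to 1.26 in A498 and -0.989 to -0.87 in 769-P.

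Guide numbers are shared between lines. The differences between guides correlated from -0.191 to 0.249 across 13422 genes for sgKDM5C and at -0.0405 for sgKDM5D, so the numbers were not taken to pair the libraries. With the guide number as a replicate block, the members called stayed at 1 in A498 and 0 in the other comparisons of genotypes. The 1 in A498 was BST2, whose difference posed the question, so this call is no test of it.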
